A study of Mus musculus with 96 samples.

Results

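Rcan1 encodes an inhibitor of the phosphatase calcineurin, and it was examined in sorted mouse microglia together with the other measured parts of the calcineurin-NFAT pathway. The 9 genes were Rcan1, Rcan2 and Rcan3 (the regulators of calcineurin), Ppp3ca, Ppp3cb and Ppp3r1 (subunits of calcineurin), and Nfatc1, Nfatc2 and Nfatc3 (the transcription factors that calcineurin acts on). They were taken by their Ensembl identifiers from 54532 gene models, and all 9 were present. Rcan1 was selected on its measured rise 6 h after surgery in these same libraries, and the other genes as the pathway around it. Its 6 h surgery values, and the comparison of those values between ages, are therefore given as a description without a test.

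The libraries came from wild-type mice aged 3 to 5 months (young) or 20 to 22 months (old), which had either abdominal surgery or were controls, and were taken 6 h or 48 h later. What the controls underwent is not given in the labels. Microglia positive for Fcrls and CD11b and negative for Ly6C were sorted from hemisphere and hippocampus of each animal, with 1000 cells lysed per library and Smart-seq2 as the protocol. The 96 libraries of 48 animals form 16 groups: young groups of 4 animals, old control groups of 8, old surgery groups of 7 at 6 h and 9 at 48 h. Each replicate is 1 animal. Sort numbers did not overlap between 6 h and 48 h, so time and sorting series cannot be told apart.

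Totals ran from 1874168 to 3778939 estimated counts per library, of which 465922 to 1500332 lay outside the 15 largest, mostly repeat-like or ribosomal gene models. Of the libraries 6, all at 6 h, are called stepped because single counts were scarce in them: of all values of 1, 2 or 3, between 4.11% and 24.7% were 1, while in any other library at least 42.7% were. Levels below are counts per 1e6 counts (CPM) of the library after TMM scaling over all 96 libraries. The 6 microglial markers P2ry12, Tmem119, Cx3cr1, Csf1r, Sall1 and Siglech, none of them part of the sort gate, summed to a median of 3803 CPM. Neuronal markers summed to 7.29 CPM, astrocyte markers to 49.1 CPM, oligodendrocyte markers to 34.7 CPM, B cell markers to 13.6 CPM, endothelial markers to 10.4 CPM, monocyte markers to 8.99 CPM and T and NK cell markers to 6.67 CPM. Border macrophage markers summed to 4.83 CPM, pericyte and smooth muscle markers to 0.978 CPM and neutrophil markers to 0.349 CPM. Of the 58 markers of these 10 cell types, 20 had a median of 0, among them all 5 neutrophil markers.

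As background, a rise of calcium in the cytoplasm loads calmodulin, which switches on calcineurin, a dimer of a catalytic A subunit and the regulatory B subunit. Calcineurin removes phosphates from NFAT proteins, which then enter the nucleus and act on genes such as those of cytokines. In macrophages and microglia this route is known to run downstream of receptors that signal through Syk and phospholipase C gamma, and NFATc1 is the master factor of osteoclasts, a related lineage. RCAN proteins bind calcineurin and restrain it. Rcan1 itself is transcribed from alternative first exons, and the transcript from its downstream start is a known target of calcineurin and NFAT, so that it is widely read as a feedback inhibitor.

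The sequences before both RefSeq starts of Rcan1 are shown because that feedback is described for the downstream start only. They are the 250 bases before each start, read 5′ to 3′ on the minus strand of chromosome 16 in GRCm38.p6 (the assembly of mm10), and capitals mark matches to the NFAT core letters GGAAA on either strand.
Rcan1 downstream start, chr16:92400079-92400328: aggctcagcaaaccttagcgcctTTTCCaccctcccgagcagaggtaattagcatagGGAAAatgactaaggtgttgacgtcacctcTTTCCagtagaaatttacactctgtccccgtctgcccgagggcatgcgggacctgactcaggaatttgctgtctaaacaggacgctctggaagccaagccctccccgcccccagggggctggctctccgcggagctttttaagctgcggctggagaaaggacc
Rcan1 upstream start, chr16:92466170-92466419: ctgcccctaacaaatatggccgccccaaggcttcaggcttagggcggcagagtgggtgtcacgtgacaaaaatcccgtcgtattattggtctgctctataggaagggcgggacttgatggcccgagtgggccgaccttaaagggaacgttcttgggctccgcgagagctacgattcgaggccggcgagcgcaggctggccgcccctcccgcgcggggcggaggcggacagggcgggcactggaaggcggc
The downstream window held 3 matches to GGAAA and the upstream window 0. Of 32851 RefSeq windows of this length, 55.6% held at least 1 match and 6.39% at least 3. Among the 6 other members with a window (10 windows), windows of Nfatc2 and Ppp3cb also held 3. The downstream window also held 1 cAMP response element, TGACGTCA, from 175 to 168 bases before the start, a motif looked for after the sequence had been seen and present in 1.55% of windows. It overlapped none of the NFAT core matches. The hexamer AGAACA of the glucocorticoid receptor and the STAT site TTCNNNGAA, each searched on both strands, had 0 matches in both windows. Of all windows only 16.1% and 7.02% held at least 1 match to them, so 0 matches is the usual outcome. The deposited values are per gene and merge transcripts from both starts, so which start a count came from was not measured.

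At 6 h after surgery Rcan1 stood higher than in controls in all 4 comparisons by age and region. The gene (chr16:92391953-92470867 in mm10, minus strand) had 9 to 148 counts per library. In old hemisphere the 8 control libraries ran from 5.86 to 10.5 CPM with a median of 7.28, and the 7 surgery libraries from 19.0 to 51.1 CPM with a median of 29.8. These groups did not overlap. The means were 7.44 ± 1.63 CPM (SD, n = 8) and 31.5 ± 10.3 CPM (SD, n = 7), a log2 fold change of 2.06 ± 0.24 (SE, edgeR), or 4.18-fold.

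In old hippocampus controls ran from 4.82 to 16.1 CPM (median 13.1) and surgery libraries from 15.6 to 38.8 CPM (median 30.9). Only the lowest surgery library, replicate 6, which is stepped, reached into the control range. The means were 11.7 ± 3.82 and 29.7 ± 7.88 CPM (SD, n = 8 and 7), a log2 fold change of 1.36 ± 0.26 (SE). The same animal, old surgery replicate 6, was also the lowest in the hemisphere at 19.0 CPM, in a stepped library.

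In young hippocampus the 4 controls had 6.52, 5.39, 9.64 and 9.73 CPM, and the 4 surgery libraries 46.2, 19.7, 18.9 and 17.1 CPM. Every surgery library lay above every control, and replicate 1 stood far above the rest. The log2 fold change was 1.68 ± 0.36 (SE), and 1.24 without replicate 1 of the surgery group. Controls 1 and 4 are stepped, and a fit without any stepped library of this region and time (also old surgery replicates 5 and 6) gave 1.74.

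In young hemisphere the 4 controls had 13.1, 16.6, 9.74 and 18.3 CPM, and the 4 surgery libraries 39.1, 18.3, 11.97 and 17.95 CPM. Replicate 1 alone was above all controls, while the other 3 surgery libraries lay inside the control range. The log2 fold change was 0.59 ± 0.32 (SE), and 0.16 without that replicate. The 95% interval, from -0.06 to 1.25, takes no account of the choice of Rcan1 on these values and is not a test. The high surgery library in each region came from 1 animal.

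Set between ages, the old surgery effect minus the young one was 1.47 ± 0.40 (SE, log2) in the hemisphere and -0.32 ± 0.43 in the hippocampus. Without young surgery replicate 1 they were 1.91 and 0.10, so the sign in the hippocampus rests on that library. With only the old animals whose sort numbers lie among those of the young, the old surgery effects were 2.09 in hemisphere and 1.21 in hippocampus. Across all genes tested, edgeR called 0.337% in old hemisphere, 0.0627% in young hemisphere, 0.0876% in old hippocampus and 0.0365% in young hippocampus. No gene (0%) was called for the difference between ages in either region. More Rcan1 RNA per cell and more cells with the RNA cannot be told apart in pooled cells.

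Summed astrocyte markers were also higher after surgery at 6 h, without overlap of the ranges in young hemisphere and with overlap in the other 3 comparisons. The 6 markers Aqp4, Gfap, Aldh1l1, Slc1a2, Slc1a3 and Gja1 summed to 38.6 CPM (29.7 to 44.7) in young control hemisphere and 72.1 CPM (44.7 to 92.3) after surgery. In old hemisphere the sums were 48.3 CPM (30.5 to 69.7) and 70.2 CPM (48.5 to 83.03). In young hippocampus they were 53.9 CPM (37.3 to 76.99) and 81.6 CPM (49.1 to 117.1), and in old hippocampus 49.4 CPM (31.3 to 85.5) and 91.8 CPM (72.4 to 150.96). Gfap had a median of 0 over all libraries. Between 3 and 4 of the 6 markers could be tested in each comparison and edgeR called 0 of them, and their part in the Rcan1 values was not tested. The sum of the 6 microglial markers after surgery was 0.79 to 1.03 times that of controls in the same comparisons, with overlapping ranges in all 4. Oligodendrocyte markers summed to 48.7 CPM (27.5 to 94.2) in old control hemisphere at 6 h and 29.6 CPM (16.7 to 43.96) after surgery, with edgeR calling 0 of the 4 tested, and their part was not tested. Neutrophil markers, too low to be tested, had a median sum of 0.362 CPM (0 to 6.99) in old control hemisphere at 6 h and 0.305 CPM (0 to 104.7) after surgery. The highest sum was in surgery replicate 5, where Rcan1 was at 32.6 CPM, and without that library the log2 fold change of Rcan1 was 2.05.

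**Figure D1:**
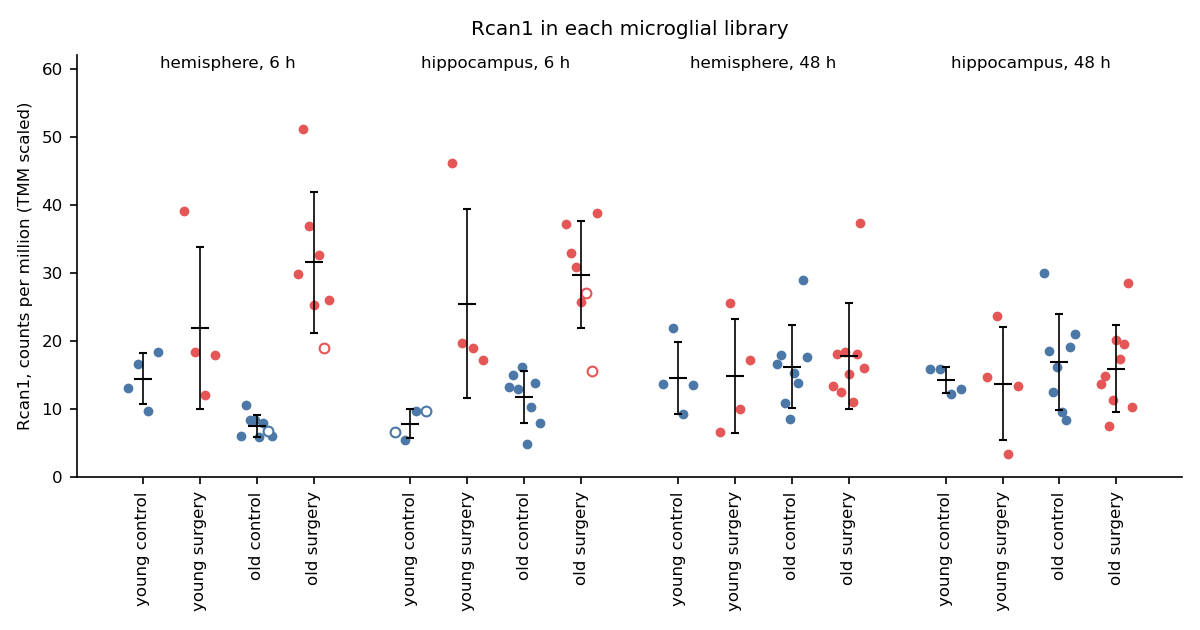
Rcan1 in CPM (vertical axis, TMM scaled) in each of 96 libraries, by age and treatment within region and time; blue points are controls, red points surgery, open points stepped libraries, and black bars the mean ± SD. The old surgery libraries at 6 h lie at 15.6 to 51.1 CPM, and at 48 h surgery and control points overlap in every pair of groups.

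At 48 h no difference in Rcan1 between surgery and control was called. In young hemisphere controls had 13.6, 21.8, 9.22 and 13.4 CPM and surgery libraries 6.59, 25.6, 10.004 and 17.2 CPM, a log2 fold change of 0.03 (95% interval -0.76 to 0.82). In young hippocampus controls had 15.8, 15.8, 12.2 and 12.9 CPM and surgery libraries 14.6, 23.6, 3.27 and 13.3 CPM, a log2 fold change of -0.02 (-0.86 to 0.83). Surgery libraries lay on both sides of the controls in each region. Old controls ran from 8.45 to 28.9 CPM (median 15.9) in hemisphere and from 8.28 to 29.96 CPM (median 17.3) in hippocampus. After surgery old libraries ran from 10.96 to 37.3 CPM (median 15.9) and from 7.38 to 28.5 CPM (median 14.8). The log2 fold changes were 0.13 (-0.41 to 0.67) and -0.08 (-0.66 to 0.50). In edgeR's test the Benjamini-Hochberg (BH) adjusted p-values were 1.00, 1.00, 0.98 and 1.00, and 0% of all genes were called in each of these 4 comparisons. The change of the surgery effect with time was not tested.

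Among controls at 6 h, Rcan1 was at 7.44 ± 1.63 CPM in old and 14.4 ± 3.81 CPM in young hemisphere (SD, n = 8 and 4), and 7 of the 8 old libraries lay below every young one. The log2 difference, old over young, was -0.93 ± 0.28 (SE). In hippocampus the difference had the other sign, 0.56 ± 0.32 (SE). These controls are part of the 6 h values for which Rcan1 was chosen, so both differences are a description. At 48 h it was 0.14 in hemisphere and 0.23 in hippocampus (edgeR BH 0.97 and 0.93), with overlapping ranges. In old hemisphere 6 h controls, at 7.44 CPM, all lay below the mean of the 48 h controls, 16.2 ± 6.11 CPM (SD, n = 8). In all genes tested, 0.0784% and 0.0584% were called for age at 6 h and 0.0898% and 0.0834% at 48 h (hemisphere, hippocampus). Rcan1 was not among those called at 48 h.

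In order of their means, the 4 surgery groups at 6 h held the 4 highest levels of Rcan1, from old hemisphere (31.5 CPM) over old hippocampus (29.7) and young hippocampus (25.5) to young hemisphere (21.8). The 8 groups at 48 h and young control hemisphere at 6 h lay between 13.7 and 17.7 CPM. Old control hippocampus at 6 h followed at 11.7 CPM, then young control hippocampus at 7.82 CPM and old control hemisphere at 7.44 CPM. Of the 15 steps between neighbours in this order, the step from 11.7 to 7.82 CPM alone exceeded the larger SD of its pair (3.82). Ranges of neighbours overlapped at each step.

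Averaged over the 4 groups of a time, Rcan1 was not called between the regions of an animal. The group means of controls at 6 h went in opposite directions, with 11.7 CPM in hippocampus and 7.44 CPM in hemisphere of old animals, and 7.82 and 14.4 CPM in young. After surgery they were 29.7 and 31.5 CPM in old animals and 25.5 and 21.8 CPM in young. Region differences within single groups were not tested. At 6 h the 23 animals had a mean of 18.9 ± 11.6 CPM in hippocampus and 18.5 ± 12.4 CPM in hemisphere, and the fitted log2 difference, hippocampus over hemisphere, was -0.03 ± 0.11 (SE, edgeR with the animal as a block, BH 0.99) with a 95% interval from -0.25 to 0.19. The fit is on the log scale and gives the 4 groups equal weight, while the plain means give each animal equal weight. It differs in sign from the plain means, and without the stepped libraries it gave 0.01. At 48 h the 25 animals had 15.6 ± 6.21 and 16.3 ± 6.72 CPM, a difference of -0.08 ± 0.14 (BH 1.00) with an interval from -0.36 to 0.20. For region, edgeR called 0% of all genes at 6 h and 0.0371% at 48 h.

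Deviations from the group means were compared between the regions of each animal, a measure added after the data had been seen and computed for all 9 genes at both times. For Rcan1 at 6 h Pearson's r was 0.576 (23 animals, permutation p 0.0115, two-sided) and Spearman's rho 0.495 (p 0.0278), with r 0.453 without the 2 animals farthest from the median. At 48 h r was 0.468 (25 animals, p 0.0552) and rho 0.473 (p 0.0305), with r 0.259 without the 2 farthest animals. Adjusted over the 18 relations the p-values for r were 0.208 and 0.331 and those for rho 0.275 at both times, so that neither time passed. Over 6187 genes the median r was 0.137 at 6 h and -0.04 at 48 h, and 2.89% and 2.62% of genes had an r at least as high as that of Rcan1. Among the other 8 genes r ran from -0.496 (Ppp3r1 at 48 h) to 0.366 (Nfatc1 at 6 h).

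**Figure D2:**
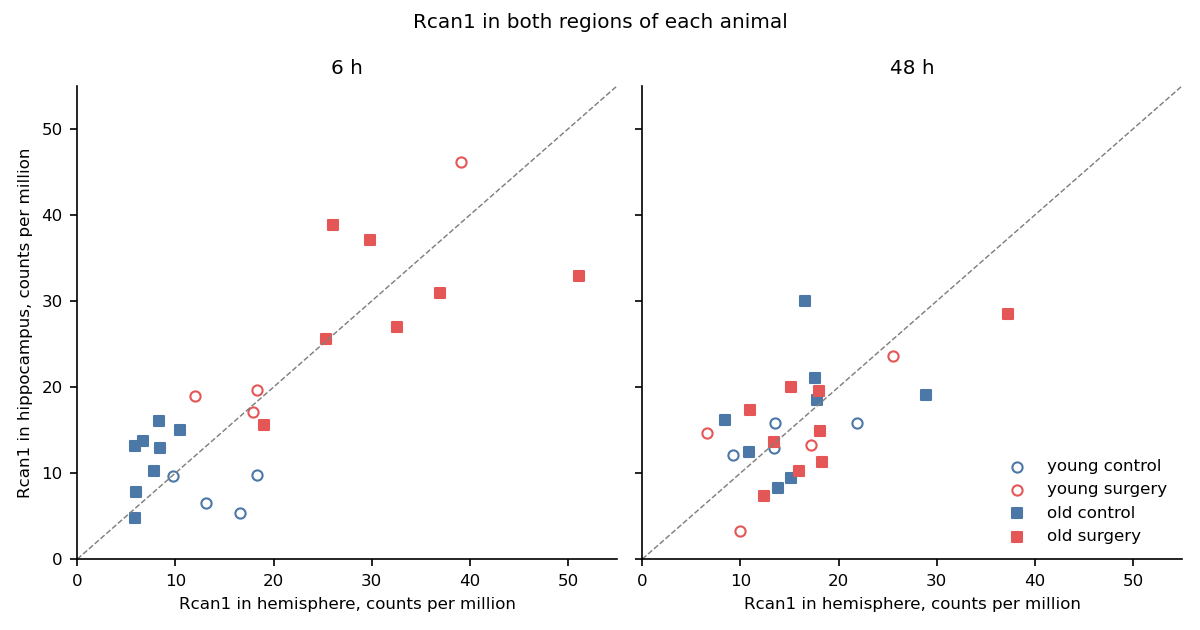
Rcan1 in hippocampus (vertical axis) against hemisphere (horizontal axis) of the same animal, in CPM, at 6 h and 48 h; circles are young and squares old animals, blue controls and red surgery, and the dashed line marks equal levels. At 6 h the young surgery animal at 39.1 and 46.2 CPM stands apart from the other 3 young surgery animals.

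Per kb of exon, Rcan1 had the highest mean level of the 9 genes, 5.59 CPM per kb over all 96 libraries, with group means from 2.41 to 10.2. Nfatc1 followed at 4.86 CPM per kb with a narrow span of group means (4.44 to 5.66), so that the order of Rcan1 and Nfatc1 differed between groups. Ppp3r1 was at 2.88, Nfatc2 at 1.71, Nfatc3 at 1.39, Rcan3 at 1.37, Ppp3ca at 1.24 and Ppp3cb at 1.03 CPM per kb. Rcan2 was at 0.201 CPM per kb. In 22 of 96 libraries Rcan2 had 0 counts, which allows up to 3 counts or 0.915 to 1.62 CPM in those libraries. It was therefore under the filter on low counts in the comparisons of surgery and age and was not tested there.

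Levels of 6 related genes were set beside these. Cabin1, which binds calcineurin and represses it, was at 3.59 CPM per kb, Dyrk1a, a kinase that sends NFAT back to the cytoplasm, at 1.57 and Nfat5, the calcineurin-independent NFAT, at 1.39. Nfatc4 was at 0.464 CPM per kb. Ppp3cc, the catalytic subunit best known from testis, was at 0.203 and Ppp3r2, the testis form of the regulatory subunit, at 0.0946 CPM per kb, with 0 counts in 27 and 53 libraries. Counts of Ppp3r1 could include reads of Wdr92 on the same strand (a mean of 7.69 counts), and those of Nfatc3 reads of overlapping models of up to 12.2 counts.

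**Figure D3:**
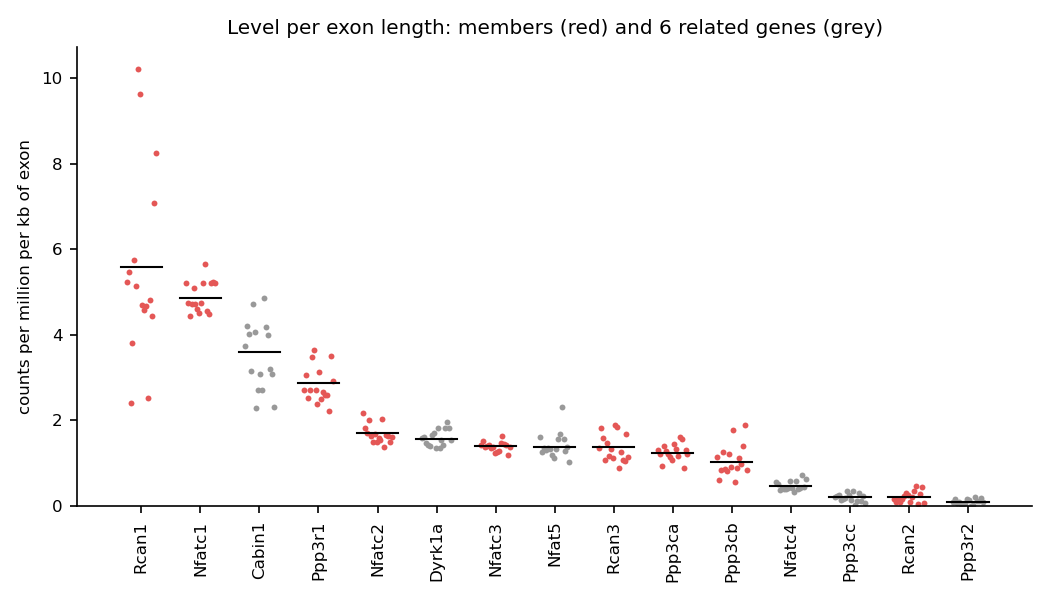
Level per exon length (vertical axis, CPM per kb of exon) of the 9 members (red) and 6 related genes (grey); each point is the mean of 1 of the 16 groups and the black line the mean over all libraries. The group means of Rcan1 spread from 2.41 to 10.2, and those of Nfatc1 from 4.44 to 5.66.

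No other member that could be tested was called after surgery. With Rcan1 at 6 h left out, members were tested 30 times for surgery in young and 30 times in old animals, over both regions and times. In young animals edgeR called 0, with 2 at an unadjusted p below 0.05, both of them Ppp3cb. Of all genes tested, 3.59% to 7.83% lay below 0.05 in these comparisons. In old animals edgeR called 0, with 0 below 0.05, beside 3.60% to 8.28% of all genes. DESeq2 and limma's voom also called 0 at both ages, with 2 each below 0.05 in young animals and 1 (DESeq2) and 0 (voom) in old. Since edgeR called 0% to 0.337% of all genes in these comparisons, 0 calls among so few members is near that background.

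Among the catalytic subunits, Ppp3cb in young hemisphere at 6 h had 8.86, 7.57, 4.40 and 10.1 CPM in controls and 7.23, 15.5, 19.3 and 24.8 CPM after surgery. Replicate 1 after surgery lay inside the control range and the other 3 above it. The log2 fold change was 1.11 ± 0.43 (SE, edgeR BH 1.00). In young hippocampus at 48 h Ppp3cb had 6.14, 6.82, 3.27 and 3.23 CPM in controls and 4.44, 23.6, 10.2 and 11.1 CPM after surgery, a log2 fold change of 1.36 ± 0.53 (SE, edgeR BH 0.67). Its sign was not the same throughout, at -0.88 in young hemisphere at 48 h. Ppp3ca had log2 fold changes from -0.54 to 0.28 over the 8 surgery comparisons. For Ppp3r1, the regulatory subunit, they ran from -0.27 to 0.41.

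Of the other regulators of calcineurin, Rcan3 was not called, and Rcan2, under the filter on low counts, was not tested. Rcan3 in young hemisphere at 6 h had 5.01, 4.73, 2.83 and 5.68 CPM in controls and 11.1, 7.25, 7.34 and 8.81 CPM after surgery. These groups did not overlap, and the log2 fold change of 0.91 ± 0.45 (SE) was not called (edgeR BH 1.00). The mean of these controls, 4.56 CPM, was the lowest group mean of Rcan3, and the surgery mean was 8.62 CPM. How many of all genes had groups without overlap there was not counted. In old hemisphere at 6 h, where Rcan1 was 4.18-fold higher, Rcan3 was at 8.17 ± 4.56 CPM in controls and 6.86 ± 2.63 CPM after surgery (SD, n = 8 and 7). Rcan2 was at 0.67 ± 0.70 and 1.34 ± 2.14 CPM there, the second mean resting on 1 library at 6.00 CPM.

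Of the 8 members tested, Nfatc1, the best known NFAT factor of osteoclasts, had the narrowest range of surgery values. Its group means ran from 33.2 to 42.3 CPM, and over the 8 surgery comparisons its log2 fold change ran from -0.11 to 0.20, with intervals between -0.56 and 0.62. In old hemisphere at 6 h Nfatc1 was at 33.2 ± 5.89 CPM in controls and 34.4 ± 8.76 CPM after surgery (SD, n = 8 and 7). Nfatc2 ran from -0.44 to 0.25 and Nfatc3 from -0.30 to 0.19 on the log2 scale. In old hemisphere at 6 h Nfatc3 was at 16.3 ± 1.65 CPM in controls and 16.2 ± 3.69 CPM after surgery (SD, n = 8 and 7).

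For age in controls and for the difference of the surgery effect between ages, edgeR called 0 of 32 and 0 of 30 tests of members (2 and 1 at an unadjusted p below 0.05, and 0 called by DESeq2 and voom). The 2 for age were Rcan1 and Rcan3 in hemisphere at 6 h, and the controls of Rcan1 took part in its choice. Rcan3 had a log2 difference of 0.85 ± 0.40 there (SE, old over young, edgeR BH 0.716). The 1 for the difference of the surgery effect was also Rcan3 in hemisphere at 6 h, at -1.15 ± 0.55 (SE, log2). Of all genes tested, 6.60% to 8.36% lay below 0.05 for age and 3.997% to 9.29% for the difference of the surgery effect. Nfatc2 in hippocampus at 6 h had an unadjusted p of 0.0529 for age in edgeR's test, above 0.05. It was at 21.3 ± 4.93 CPM in old and 14.6 ± 3.16 CPM in young controls (SD, n = 8 and 4), a log2 difference of 0.56 ± 0.28 (SE, edgeR BH 0.61). Between regions edgeR called 0 of 17 tests of members, with 1 at an unadjusted p below 0.05 (5.31% to 5.71% of all genes). That was Ppp3cb at 48 h, at 7.08 ± 5.32 CPM in hippocampus and 9.85 ± 5.67 CPM in hemisphere (SD, n = 25), a log2 difference of -0.53 ± 0.22 (SE, edgeR BH 0.83).

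**Figure D4:**
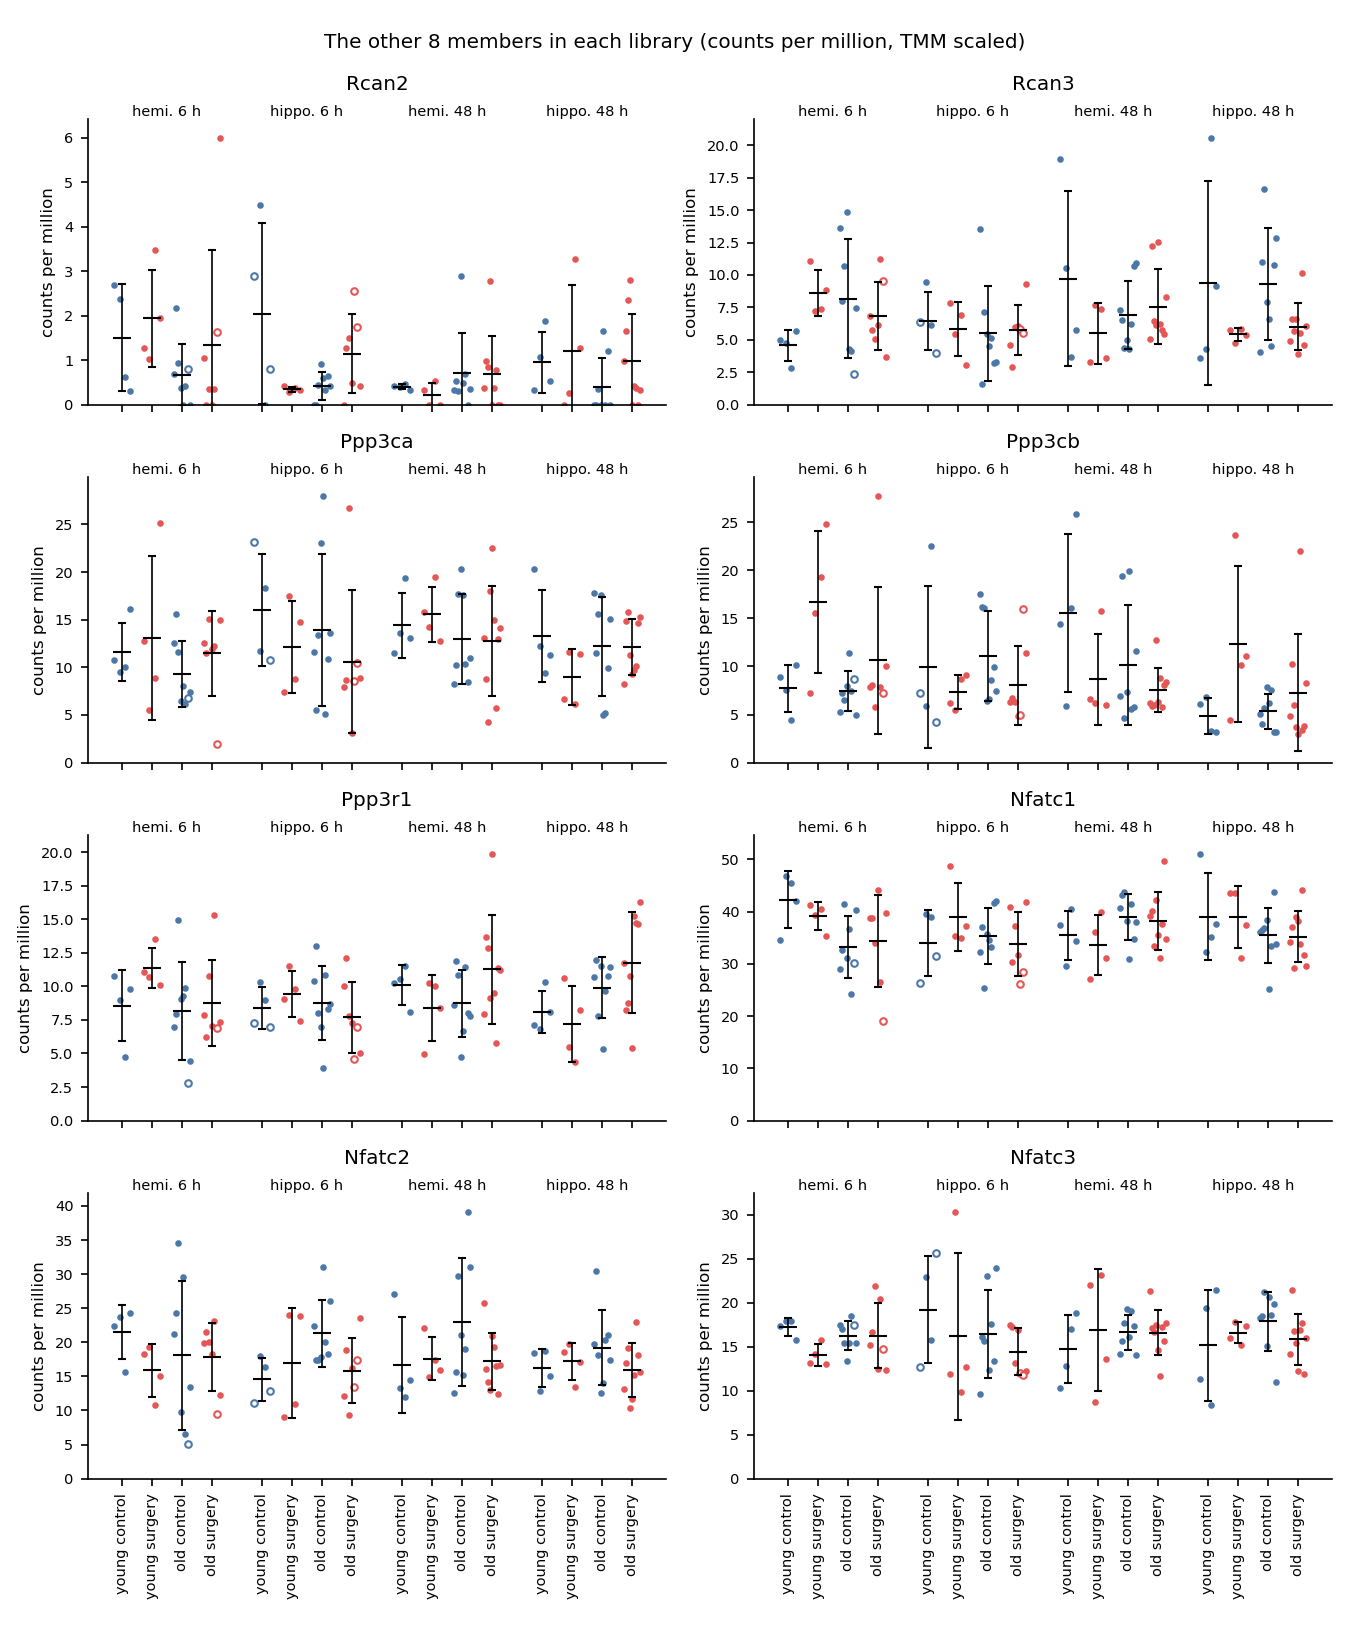
The other 8 members in CPM (vertical axes, TMM scaled, each from 0) in each library, by age and treatment within region and time; blue points are controls, red points surgery, open points stepped libraries, and black bars the mean ± SD. Surgery and control points overlap in most pairs of groups, Rcan3 in young hemisphere at 6 h being an exception.

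**Figure D5:**
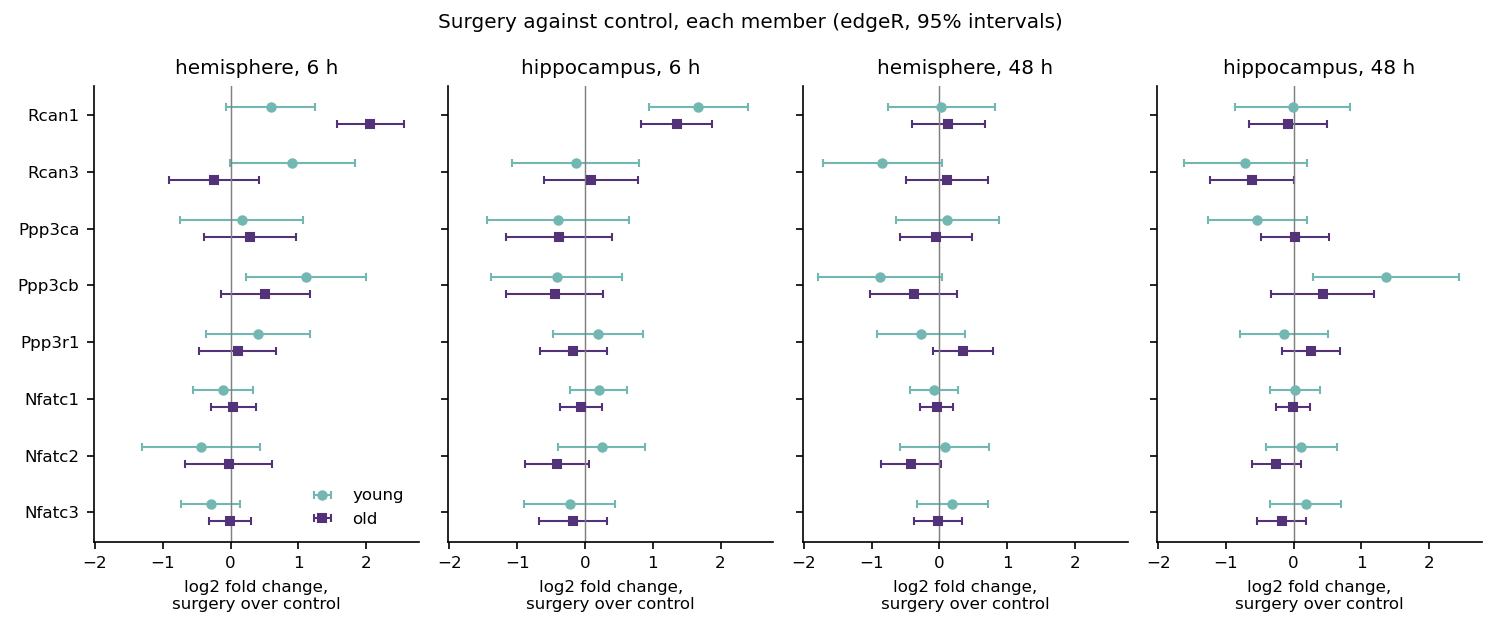
Log2 fold change of surgery over control (horizontal axis) of 8 members, in young (circles) and old (squares) animals, with 95% intervals from edgeR; Rcan2 was not tested. At 6 h Rcan1 runs from 0.59 to 2.06, with intervals that take no account of its choice on these values. No interval of another member at that time lies wholly on 1 side of 0 except that of Ppp3cb in young hemisphere.

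The wider pathway was read from 74 further genes, 73 of them in the files, in 6 lists: other calcineurin and NFAT genes, calcium entry and release, NFAT kinases and retention factors, NFAT target genes, other calcineurin substrates, and calmodulin-dependent kinases. Between 53 and 56 of them could be tested in a comparison. edgeR called 0 of 972 tests over all 18 comparisons, with 61 (6.28%) at an unadjusted p below 0.05. Over all genes that share was 3.59% to 9.29%, depending on the comparison. limma's voom called 0 with 65, and DESeq2 called 3 with 66. In old hemisphere at 6 h the median log2 fold change of the 54 tested genes was 0.05, with 30 of 54 above 0, against -0.02 over all genes.

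The 3 calls of DESeq2 fell on 2 genes, which were chosen after their values were seen. Over all genes DESeq2 called 0.886% in the comparison that holds the call of Orai2, and 0.171% (age) and 0.2% (region) in those of Tnf. Orai2, a subunit of the store-operated calcium channel, was at 25.5 ± 6.89 CPM in old control hemisphere at 6 h and 15.4 ± 2.63 CPM after surgery (SD, n = 8 and 7), with a log2 fold change of -0.74 ± 0.17 (SE, edgeR BH 0.0603, DESeq2 BH 0.00892). Tnf, a cytokine gene with NFAT sites in its promoter, was at 33.6 CPM in old and 12.4 CPM in young control hemisphere at 48 h, without overlap, a log2 difference of 1.43 ± 0.35 (SE, edgeR BH 0.174, DESeq2 BH 0.0297). Between regions at 48 h Tnf had a log2 difference of -0.54 ± 0.14 (SE, hippocampus over hemisphere, edgeR BH 0.255, DESeq2 BH 0.0364). After surgery Tnf was not higher in old animals, with log2 fold changes of -0.39 in hemisphere and -0.82 in hippocampus at 6 h, neither called.

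By list, at 6 h in old hemisphere 4 of 10 other calcineurin and NFAT genes, 9 of 14 genes of calcium entry and release, 5 of 8 kinases and retention factors, and 2 of 5 NFAT target genes had a fold change above 0. Their medians were -0.04, 0.12, 0.16 and -0.23 (log2). Of other calcineurin substrates 6 of 10 lay above 0 (median 0.03), and of calmodulin-dependent kinases 4 of 7 (median 0.18). Cabin1 went from 48.8 ± 15.3 CPM to 27.7 ± 8.54 CPM there (SD, n = 8 and 7), a log2 fold change of -0.82 ± 0.26 (SE, edgeR BH 0.246) that did not pass. Its values at 48 h in old hemisphere were 45.6 and 57.4 CPM. Dyrk1a ran from -0.21 to 0.58 over the 8 surgery comparisons and Nfatc4 from -0.46 to 1.10, with none called. Nfat5 had its lowest value, -1.13, in young hippocampus at 6 h (edgeR BH 0.511), where the SD of the controls, 44.6 CPM, exceeded their mean of 42.5 CPM.

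Over the 16 group means of log2 CPM, the genes with the pattern most like Rcan1 were Fcgr3 (Pearson's r 0.90), Ntpcr (0.87), Dram2 (0.85), Ppp1r21 (0.85) and Sipa1 (0.84), out of 5361 genes with a mean log2 CPM of at least 3. By Spearman's rank correlation they stood at places 2, 25, 9, 16 and 8. Group means share libraries and scaling between genes, and the high groups are the 4 that chose Rcan1. Fcgr3, a receptor for the Fc part of antibodies, went from 176.5 CPM in old control hemisphere at 6 h to 264.0 CPM after surgery. Ppp1r21, which serves endosomal sorting, went from 15.999 to 44.2 CPM there. Dram2, a lysosomal membrane protein, went from 16.99 to 29.6 CPM and Sipa1, a GTPase-activating protein for Rap, from 50.6 to 75.8 CPM. Of the members, Ppp3r1 had an r of 0.24 with Rcan1, Nfatc1 0.12, Ppp3cb 0.04, Nfatc2 0.01, Ppp3ca -0.25 and Nfatc3 -0.50. Rcan2 and Rcan3 lay under the level required.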

How the data were processed

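Per the file headers, the authors deposited estimated counts per Ensembl gene model, 1 column of whole numbers for each library. mm10, R 4.2.1 and DESeq2 1.36.0 appear in the submitters' processing notes. Aligner, counter and strand setting: not given in the sources used here, beyond these notes. A count test, planned for raw counts, was kept, and rounding changed nothing because the values were whole. Of 54532 identifiers 54495 matched GENCODE vM21. Totals ran from 1874168 to 3778939 counts.

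Each region and time was fitted as 4 groups with edgeR 4.0.16 (R 4.3.3; TMM, filterByExpr at a minimum count of 10, robust quasi-likelihood F-test, BH below 0.05 over all genes). The region comparison had the animal (sort number) as a block. DESeq2 1.42.0, limma 3.58.1 (voom) and the other alternatives named in the closing section were also run. The fitting code was tested on simulated data. CPM were computed in R with TMM factors from edgeR. Summaries and figures used Python 3.11.15, SciPy 1.17.1 and matplotlib 3.10.9. Correlations between regions used 100000 permutations of animals within groups.

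Named genes were the 9 members, 6 related genes, any pathway gene called, and the 5 genes most like Rcan1. The members, lists and tests were chosen with earlier results of these data known. Promoter sequences are RefSeq's.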

Additional observations from a re-analysis of the deposited data

Results flagged for a closer look

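Each member was checked in each of the 16 groups for a library standing apart, by the gap of the highest or lowest value to its neighbour relative to the range of the group. Of 144 such checks 19 marked a library. Chance alone marks about 1 in 20 if values are normally distributed, which was not checked for these low counts. In 18 of the 19 the highest value was the one that stood apart.

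For Rcan1, the library of young surgery replicate 1 in hippocampus at 6 h (46.2 CPM, next 19.7) stood apart, as did old control replicate 7 (28.9 CPM, next 17.8) and old surgery replicate 8 (37.3 CPM, next 18.3), both in hemisphere at 48 h. In the same young surgery library Nfatc1 was also the highest of its group, at 48.7 CPM (next 37.3). Nfatc3 stood apart in replicate 2 of that group, at 30.3 CPM (next 12.8).

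Ppp3cb had 5 such libraries: 27.7 CPM in old surgery hemisphere at 6 h, 22.5 CPM in young control hippocampus at 6 h, 22.0 CPM in old surgery hippocampus at 48 h, 12.8 CPM in old surgery hemisphere at 48 h and 15.8 CPM in young surgery hemisphere at 48 h. Ppp3ca was low in old surgery hemisphere replicate 6 at 6 h, a stepped library (1.97 CPM, 6 counts, next 11.5 CPM), and high in old surgery hippocampus replicate 3 at 6 h (26.7 CPM). Nfatc2 stood out in young control hemisphere at 48 h (27.1 CPM).

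Rcan3 stood apart at 13.6 CPM in old control hippocampus at 6 h and at 10.2 CPM in old surgery hippocampus at 48 h. Rcan2 did so 4 times, always in old hemisphere: 2.17 CPM (control, 6 h), 6.00 CPM (surgery, 6 h), 2.90 CPM (control, 48 h) and 2.78 CPM (surgery, 48 h), from 6 to 18 counts.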

How the results depend on the processing

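Rcan1's 6 h surgery values kept their sign under every alternative that was run (DESeq2, voom, no filter on low counts, without the 15 largest gene models, without stepped libraries, old animals sorted among the young, and each library left out in turn). Leaving out each library gave 1.92 to 2.15 (log2) in old hemisphere, 0.16 to 0.78 in young hemisphere, 1.23 to 1.46 in old hippocampus and 1.24 to 1.83 in young hippocampus. The difference between ages ran from 1.30 to 1.91 in hemisphere and from -0.49 to 0.10 in hippocampus, where leaving out young surgery replicate 1 turned the sign to 0.10. In 139 log2 fold changes of single members, none passed the threshold under any of 4224 alternatives, and 65 of those values, none of them called, changed sign at least once (242 times in all). Levels of Rcan1 rose to 29.5 to 123.8 CPM over the groups when the 15 largest gene models were left out of the total. Of the 5 genes most like Rcan1, 1 was among the first 5 by Spearman's correlation. Counts per library (a mean of 46.9 for Rcan1, 2.57 for Rcan2) limit the precision of each value.

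By correlation the replicate numbers of the labels showed little pairing of the animals: 7 to 12 of 27 or 28 pairs with the same number correlated above 0.1 in a fit. Their median r ran from -0.02 to 0.09, and that of other pairs from -0.01 to 0.01. At 6 h animals with the same replicate number, from 1 to 4, had neighbouring sort numbers across the groups. Whether these were sorted together was not tested. With the replicate block the 6 h surgery values of Rcan1 were 2.01 and 0.56 in hemisphere (old, young) and 1.30 and 1.62 in hippocampus, and the number of other members called stayed at 0. Without the animal block, the region difference of Rcan1 was -0.02 at 6 h and -0.06 at 48 h.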
